A study of Mus musculus with 12 samples.

Results

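Enzymes that break down amino acids were followed through kidneys of wild type (WT) and Tet2-/- mice, at baseline and after renal ischemia-reperfusion (IR). The 54 genes were chosen by name from known pathways, with earlier results of these data known, and make up 54 of the 24421 gene symbols measured. They comprise 4 genes of aromatic amino acid breakdown, 13 of branched-chain amino acid breakdown, 12 of glycine, serine and one-carbon metabolism, 6 of sulfur amino acid metabolism, 10 of proline, glutamate and alanine metabolism, 4 of arginine and creatine metabolism, 2 of lysine breakdown, and 3 others (2 oxidases and an aminotransferase). All 54 were found in the deposited tables. The 12 RNA-seq libraries came from whole kidneys of male mice, labelled C57BL/6 and bred on a C57BL/6J background, at 6 weeks of age, 3 per group and 1 per mouse. Baseline mice of both genotypes had no operation. In the IR mice the right kidney was made ischemic for 60 min, the left kidney was then taken out, and tissue was collected 24 h later. A difference between IR and baseline thus also carries anesthesia, surgery and loss of the other kidney, which cannot be told apart from ischemia here. By their description, the Tet2-/- mice carry the mutant allele in the germline, so it is not limited to 1 cell type of the kidney.

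The kidney is a main organ of amino acid metabolism, and its proximal tubule cells reabsorb filtered amino acids and hold most of these enzymes. Nitrogen is first removed by aminotransferases, oxidases or the glycine cleavage system, and the remaining carbon skeletons are passed to the tricarboxylic acid cycle, mostly inside mitochondria. The kidney also makes arginine from citrulline and the creatine precursor guanidinoacetate from arginine and glycine, and it releases ammonia from glutamine and glutamate. Tet2 encodes a dioxygenase that oxidizes 5-methylcytosine in DNA, mostly at CpG dinucleotides.

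The libraries held 51007366 to 107969888 counts on the transcripts used, and the 2 libraries of any replicate pair differed beyond sampling noise. Tet2 itself stood at 9.15, 6.25 and 7.33 FPKM (fragments per kilobase of transcript, scaled to the mapped reads of the library) in WT baseline libraries, and at 9.25, 16.6 and 10.3 FPKM in baseline libraries labelled Tet2-/-. The level of Tet2 RNA was therefore not lower in the unoperated libraries labelled Tet2-/- (log2 fold change 0.76, SE 0.24, adjusted p = 0.321 by edgeR), and the genotype is given throughout as the label states it. After IR it stood at 9.34, 3.97 and 3.86 FPKM in WT libraries and at 2.64, 3.20 and 1.76 FPKM in libraries labelled Tet2-/- (log2 fold change −1.28, SE 0.36, adjusted p = 0.0690). These counts do not show which part of the gene the reads came from. All 12 proximal tubule markers were present in each group.

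Most of the enzyme genes were expressed in unoperated kidneys. In each group 50 of the 54 had a mean of at least 1 FPKM. Their group means summed to 4514 FPKM in WT baseline libraries and 4449 FPKM in baseline libraries labelled Tet2-/-. After IR the sums were 3710 FPKM in WT libraries and 2141 FPKM in libraries labelled Tet2-/-, and the number of genes at 100 FPKM or more was 13 and 5, from 18 and 16 at baseline. Tdh, which encodes threonine dehydrogenase, was at or below 0.006 FPKM in every library and was not tested in any comparison. Bhmt, Sds and Pycr1 stayed under 1.5 FPKM in all libraries.

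**Figure D1:**
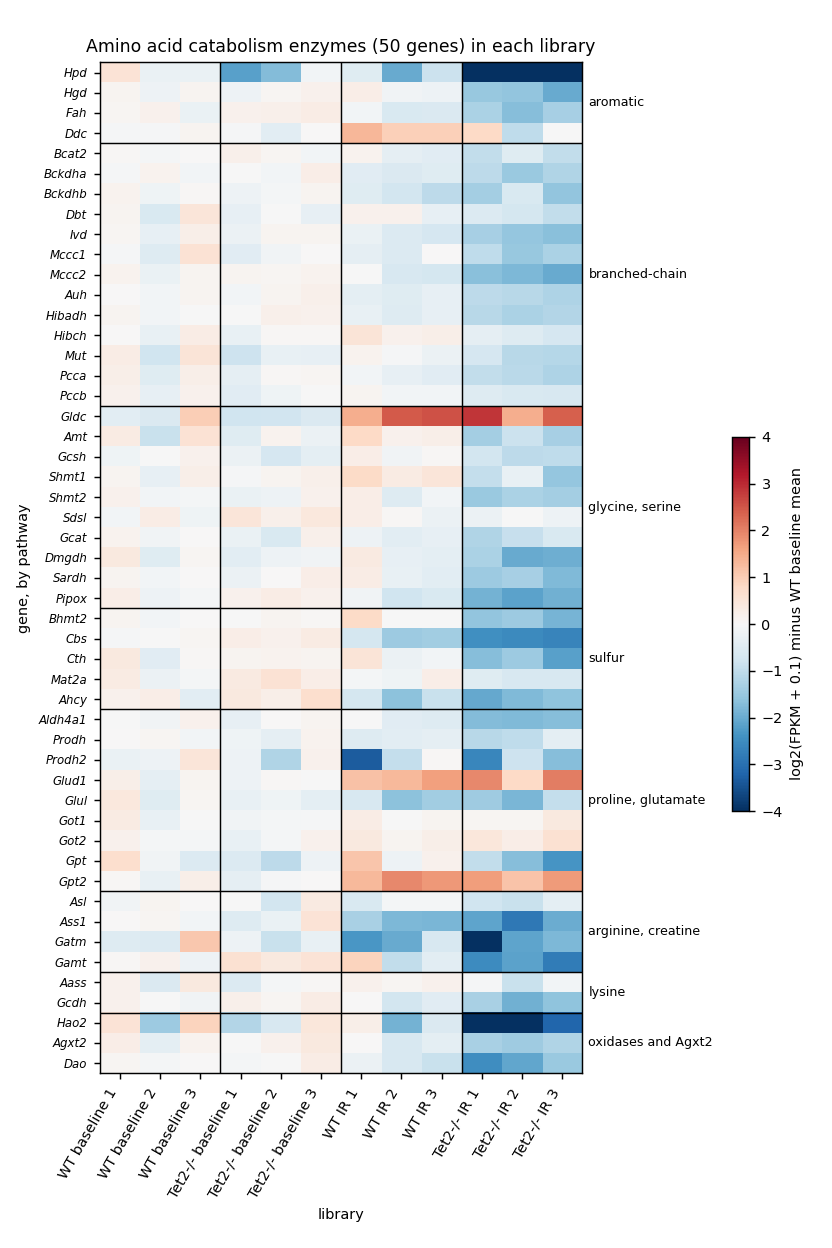
Each row is an enzyme gene with a mean of at least 1 FPKM in any group (50 genes), each column 1 of the 12 libraries. The colour is the log2(FPKM + 0.1) minus the mean of the 3 WT baseline libraries, cut at 4 in both directions. Most rows are blue in the 3 IR libraries labelled Tet2-/-, while Gldc, Glud1 and Gpt2 are red in all 6 IR libraries.

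In WT kidneys 6 of the enzymes passed the test between IR and baseline. Gpt2, Glud1 and Ddc rose and Ass1, Cbs and Bckdhb fell, which is 3 higher and 3 lower of 52 genes tested at an adjusted p under 0.05 (edgeR's quasi-likelihood test with Benjamini-Hochberg adjustment over all genes tested). Among all 16015 genes tested, 1.88% were higher and 1.14% lower by the same rule. The median log2 fold change of the 52 enzymes was −0.28, against −0.03 for all genes. In 13 enzymes every WT IR library was below every WT baseline library in FPKM, and in 5 it was the reverse (all genes: 10.4% and 18.9%). Libraries with the same replicate number deviated together between baseline and IR, and with the replicate number as a block 8 enzymes were lower and 4 higher, where the calls among all 16015 genes went from 182 to 829 lower and from 301 to 659 higher. Hpd, Glul, Gatm, Pipox and Dao were added to the lower ones and Gldc to the higher ones. Of all 16 alternatives Hpd, Gatm and Pipox passed in this 1, and Glul, Dao and Gldc in 3. No enzyme passed in either direction when WT baseline replicates 2 and 3, which had the highest adipocyte markers of their group, were left out together, which leaves 1 WT baseline library, assumed to vary like the WT IR libraries. Over all genes 1 was then lower and 0 higher. Of the enzymes, 0 higher and 1 lower passed without any 1 WT baseline library or without WT IR replicate 3. Without WT IR replicate 2, 1 was higher and 1 lower. Over all genes 37 to 55 were lower and 41 to 90 higher in these 5 fits. The call of Bckdhb was lost in 9 of 16 alternatives, those of Gpt2, Glud1, Ddc and Cbs in 6 each and that of Ass1 in 1.

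In kidneys of mice labelled Tet2-/- most of the enzymes fell with IR. Of 53 genes tested, 43 were lower and 3 higher (81.1% and 5.66%), where 20.3% of all 16359 genes were lower and 22.9% higher. At more than 2-fold, 35 enzymes were lower (66.0%), against 11.6% of all genes. The median log2 fold change was −1.35 for the enzymes and 0.04 for all genes. In 39 enzymes every IR library was below every baseline library and in 6 above (all genes: 17.9% and 40.5%). Among genes with a mean of at least 1 FPKM in either group, the largest falls were those of Hpd, Hao2, Gamt, Cbs and Ahcy, and the 3 genes that rose were Gldc, Glud1 and Gpt2. The 7 genes that did not pass were Ddc, Sds, Pycr1, Got1, Got2, Asl and Aass. Scaling by library size alone moved the median of all genes from 0.04 to 0.27 and that of the enzymes from −1.35 to −1.11. Asl, at an adjusted p of 0.0540, passed with the replicate block (adjusted p = 0.00522) and in 7 of 15 alternatives in all. Of the genes that passed, Mut and Prodh2 also did so in 7 of 15, Pccb in 10, Gcat, Prodh and Gpt in 11 and Glud1 in 14, and the others passed in each alternative that tested them. In whole kidneys, fewer cells of a type and less RNA of a gene per cell cannot be told apart.

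**Figure D2:**
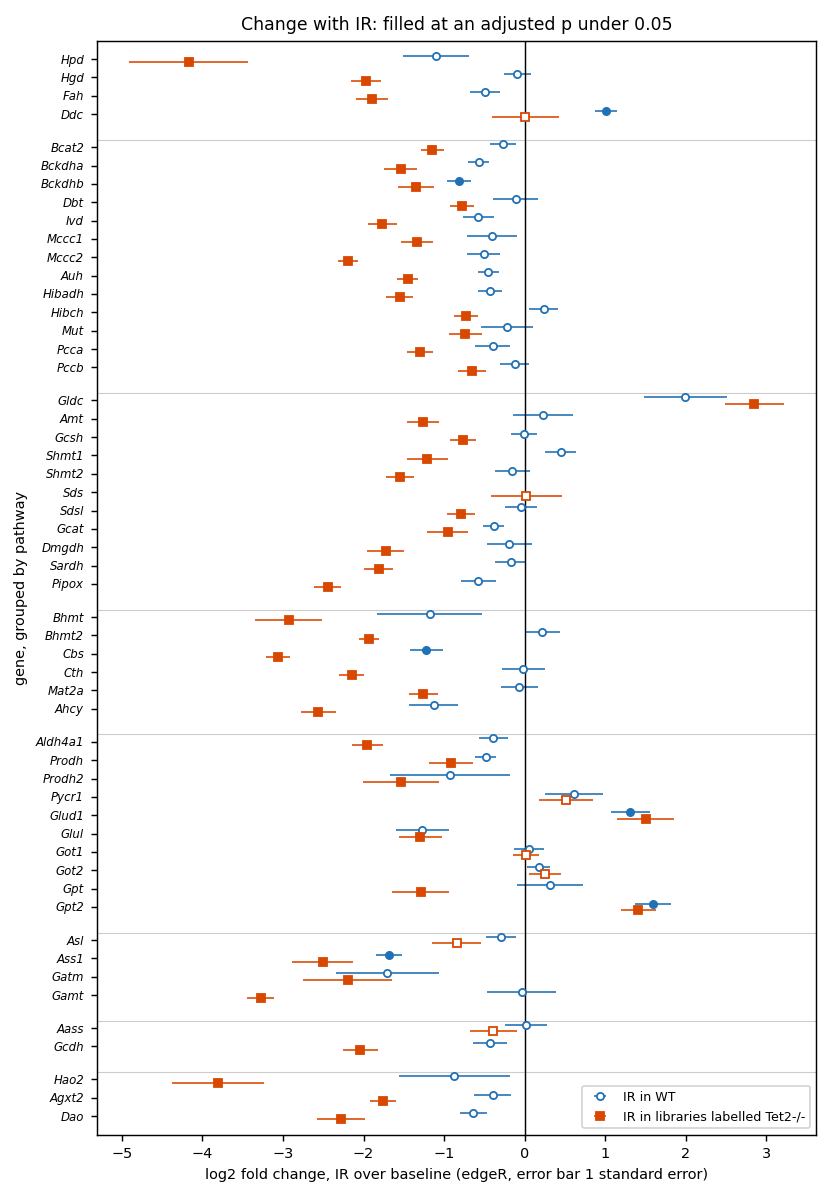
The log2 fold change of IR over baseline is plotted for each tested enzyme gene, grouped by pathway, with 1 standard error, as blue circles for WT and orange squares for libraries labelled Tet2-/-. Filled symbols mark an adjusted p under 0.05. The orange squares lie left of the blue circles for most genes, and Gldc, Glud1 and Gpt2 lie right of 0 in both genotypes.

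No enzyme passed edgeR's test between the genotypes in unoperated kidneys. At baseline 0 of 53 were lower and 0 higher at an adjusted p under 0.05, where 0% of all genes were lower and 0.0124% higher. By an unadjusted p under 0.05, 5 were higher in libraries labelled Tet2-/- (Gamt, Cbs, Mat2a, Sdsl and Ahcy) and 0 lower, where 3.56% of all genes were higher and 8.2% lower. DESeq2 called 1 enzyme higher and 0 lower, and 83 higher and 438 lower among all 16086 genes. Gamt had the smallest p of these, at 22.1, 24.2 and 18.6 FPKM in WT libraries and 32.7, 28.3 and 31.1 FPKM in libraries labelled Tet2-/- (log2 fold change 0.60, SE 0.13, adjusted p = 0.224). All 3 libraries labelled Tet2-/- were above all 3 WT libraries for Gamt. The median log2 fold change of the enzymes was 0.04.

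After IR 31 of 53 enzymes tested were lower in the libraries labelled Tet2-/- than in WT libraries and 0 higher (58.5% lower), and 22 did not pass, where 6.17% of all 16186 genes were lower and 3.51% higher. At more than 2-fold, 24 enzymes were lower (45.3%), against 3.85% of all genes. In 38 enzymes every library labelled Tet2-/- was below every WT library and in 0 above (all genes: 14.6% and 22%). The median log2 fold change was −1.01 for the enzymes and 0.04 for all genes. Hpd, Hao2, Gamt, Gpt and Bhmt2 had the largest differences among those that passed. Of these, Bhmt2 passed in 15 of 15 alternatives, Hpd in 13, Gamt in 12 and Hao2 and Gpt in 11. The calls that passed in the fewest alternatives were those of Pccb, in 8 of 15, Bckdha, in 9, and Fah, Mccc1, Gcdh and Dao, in 10 each. The count depended on single libraries, and was 11 without WT IR replicate 1, 15 without WT IR replicate 3, 18 without the first IR library labelled Tet2-/- and 15 without the second. Among all genes the number lower went from 999 to 250, 305, 323 and 417 in the same fits, while the median of the enzymes stayed between −1.16 and −0.90 when any 1 library was left out.

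The change with IR itself differed between the genotypes for 24 of 53 enzymes, all with a more negative change in the libraries labelled Tet2-/- (45.3% lower and 0% higher), where 5.39% of all 16741 genes were lower and 3.79% higher. The median interaction was −0.96 on the log2 scale for the enzymes and 0.10 for all genes. These 24 were 2 of 4 aromatic, 7 of 13 branched-chain, 5 of 11 glycine and serine, 5 of 6 sulfur, 1 of 10 proline and glutamate, 1 of 4 arginine and creatine and 1 of 2 lysine genes, and 2 of the 3 others. With the replicate block Hpd, Amt, Gcsh, Gpt and Hao2 were added and Ahcy was lost, at an adjusted p of 0.0514. Of all 21 alternatives Hpd passed in 5, Amt in 4, Gcsh and Hao2 in 3 and Gpt in 2. The count fell to 15 without the third baseline library labelled Tet2-/- and to 15 without WT IR replicate 1. It was 0 without WT baseline replicates 2 and 3 together, where the lone WT baseline library was assumed to vary like the other groups and the median was −1.02. Over all 17237 genes tested in that fit the interaction passed with a negative value for 8 and with a positive value for 2, from 902 and 634, and in the fits that gave 15 enzymes the negative ones numbered 550 and 485.

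**Figure D3:**
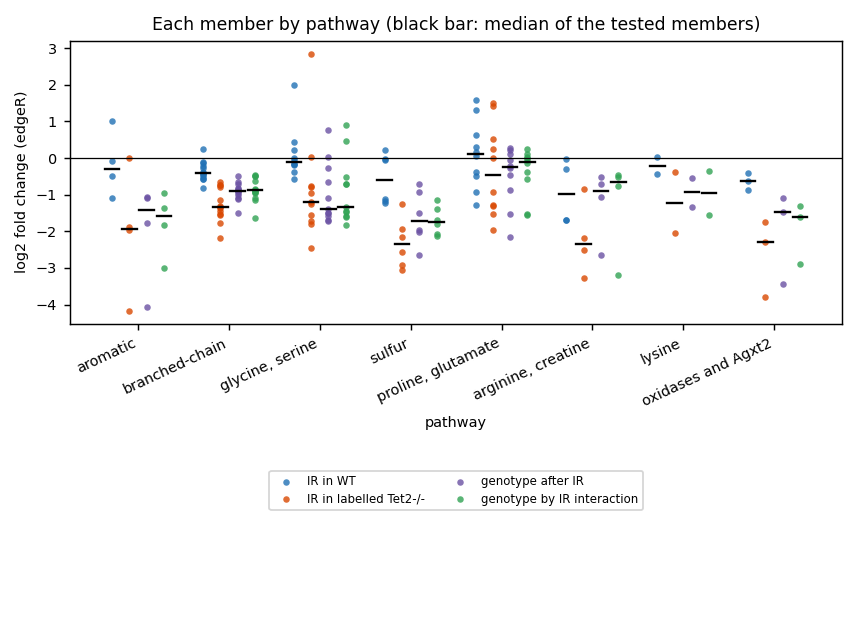
Each point is an enzyme gene and each black bar the median of the tested genes of a pathway, for the change with IR in WT, the change with IR in libraries labelled Tet2-/-, the difference between genotypes after IR and the interaction, all in log2 units. The bars of the last 3 comparisons lie below 0 in all 8 groups of genes, lowest for the sulfur genes and the arginine and creatine genes with IR in libraries labelled Tet2-/- (−2.35 in both), while the proline and glutamate genes lie nearest 0.

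The DNA just upstream of the transcript starts is shown for genes at both ends of these changes, and for a pair of genes that share it. The sequences were read from the mouse genome assembly NCBIM37 (mm9), 5′ to 3′ on the strand of the gene, and end just before the first annotated exon of that gene. Capitals mark the letters of the motifs searched for on both strands. Hpd and Hao2 fell most with IR in libraries labelled Tet2-/-, Gldc and Glud1 rose, and Bhmt2 and Dmgdh point away from each other with 130 bases between their starts.
Hpd, chr5:123632735-123632984, minus strand: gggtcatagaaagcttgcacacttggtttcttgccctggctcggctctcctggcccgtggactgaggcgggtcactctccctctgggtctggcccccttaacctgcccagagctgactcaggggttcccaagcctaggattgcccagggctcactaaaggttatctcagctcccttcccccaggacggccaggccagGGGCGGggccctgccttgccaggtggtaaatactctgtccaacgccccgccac
Hao2, chr3:98697163-98697412, minus strand: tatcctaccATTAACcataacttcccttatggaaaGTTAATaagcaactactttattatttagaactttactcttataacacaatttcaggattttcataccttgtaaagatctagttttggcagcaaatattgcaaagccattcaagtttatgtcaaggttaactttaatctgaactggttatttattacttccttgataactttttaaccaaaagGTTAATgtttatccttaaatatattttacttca
Gldc, chr19:30249932-30250181, minus strand: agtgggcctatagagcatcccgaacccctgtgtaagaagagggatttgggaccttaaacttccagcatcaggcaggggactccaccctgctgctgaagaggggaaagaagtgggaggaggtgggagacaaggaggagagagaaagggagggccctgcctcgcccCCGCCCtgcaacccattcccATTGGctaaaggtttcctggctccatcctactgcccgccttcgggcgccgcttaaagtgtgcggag
Glud1, chr14:35123663-35123912, plus strand: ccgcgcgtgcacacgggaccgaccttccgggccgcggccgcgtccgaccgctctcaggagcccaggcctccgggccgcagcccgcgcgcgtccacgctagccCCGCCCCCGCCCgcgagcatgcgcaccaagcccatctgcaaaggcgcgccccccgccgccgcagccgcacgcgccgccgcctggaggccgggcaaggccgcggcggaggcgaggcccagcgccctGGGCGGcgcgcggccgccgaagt
Bhmt2 and Dmgdh, chr13:94444258-94444387, plus strand: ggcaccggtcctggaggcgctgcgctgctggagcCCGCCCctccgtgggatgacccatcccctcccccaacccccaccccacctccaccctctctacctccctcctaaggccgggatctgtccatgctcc

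The windows differed in CpG content. In the 250 bases shown, Glud1 held 46 CpG dinucleotides, Gldc 8, Hpd 7 and Hao2 0, and the 130 bases between Bhmt2 and Dmgdh held 6. Over the 250 bases before the start of each transcript used, the median was 10.5 CpG for the 54 enzymes and 9.0 for all 24351 symbols with a window. The GC box GGGCGG was present in 57.4% of the enzyme windows and 41.6% of all windows, and it is the motif in capitals for Hpd, Gldc, Glud1 and the Bhmt2 and Dmgdh stretch. The CCAAT box, spelled CCAAT, was present in 53.7% of the enzyme windows and 35% of all, and is also in the Gldc window. A short motif of HNF1, a transcription factor of proximal tubule cells, was searched as GTTAAT and was present in 5.56% and 5.65%, and the Hao2 window holds 3 of them. The HNF4 site CAAAGTCC was in 5.56% of enzyme windows (Pipox, Cth and Agxt2) and 1.26% of all windows. The TATA box TATAAA was in 9.26% and 12%, and the C/EBP-ATF site TGATGNAAT in 1.85% (Pycr1) and 0.772%. No motif overlapped another in the sequences shown. These are matches of letters, and no binding was measured.

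Aromatic amino acid breakdown was the pathway with the gene that fell most. Hpd (chromosome 5, 123621816 to 123632695, minus strand) encodes 4-hydroxyphenylpyruvate dioxygenase, the second enzyme of tyrosine breakdown. Hpd stood at 92.1, 52.6 and 53.04 FPKM in the WT baseline libraries and at 13.9, 18.8 and 58.9 in the baseline libraries labelled Tet2-/-, against 45.6, 15.8 and 34.7 in the WT IR libraries and 3.64, 0.986 and 1.48 in the IR libraries labelled Tet2-/-. All 3 IR libraries labelled Tet2-/- were below every other library, and 2 of the 3 baseline libraries labelled Tet2-/- were below all WT baseline libraries. With IR Hpd fell to 5.55% of its baseline in libraries labelled Tet2-/- (log2 fold change −4.17, SE 0.73, adjusted p = 0.00358), and in WT libraries the log2 fold change was −1.10 (SE 0.41, adjusted p = 0.176), with an adjusted p of 0.0285 under the replicate block. After IR the genotypes differed by −4.08 log2 units (SE 0.63, adjusted p = 0.0167), and the interaction of −3.02 log2 units (SE 0.89, adjusted p = 0.0559) passed with the block (adjusted p = 0.0460) and in 5 of 21 alternatives in all. Hgd (homogentisate dioxygenase) and Fah (fumarylacetoacetase) carry out later steps of the same pathway. In WT libraries Hgd FPKM was 220.3, 180.2 and 221 at baseline and 245, 185 and 181 after IR, and in libraries labelled Tet2-/- it was 179.8, 219 and 229.9 at baseline and 72.7, 69.5 and 51.3 after IR. Fah FPKM after IR was 125, 92.8 and 118 in the libraries labelled Tet2-/- and 275, 195 and 202 in the WT libraries, where the baseline values were 335, 347 and 367 and, in WT, 316, 338 and 251. For both, all IR libraries labelled Tet2-/- were below all the other 9 libraries. The share of all genes with this pattern, which is also given for other enzymes below, was not counted. The log2 fold change with IR in libraries labelled Tet2-/- was −1.97 (SE 0.18, adjusted p = 0.000304) for Hgd and −1.89 (SE 0.20, adjusted p = 0.000459) for Fah, and in WT libraries it was −0.09 (adjusted p = 0.790) and −0.49 (adjusted p = 0.174). Ddc, the decarboxylase that makes dopamine and serotonin from aromatic amino acid derivatives, went the other way in WT kidneys. Ddc stood at 16.4, 16.2 and 18.2 FPKM in the WT baseline libraries and at 16.2, 12.6 and 17.2 in the baseline libraries labelled Tet2-/-, against 42.4, 32.5 and 32.6 in the WT IR libraries and 29.6, 8.37 and 16.6 in the IR libraries labelled Tet2-/-. It rose with IR in WT libraries (log2 fold change 1.02, SE 0.14, adjusted p = 0.0175), where every IR library was above every baseline library. In libraries labelled Tet2-/- the change was 0.01 log2 units (SE 0.42, adjusted p = 0.993), with 1 IR library above and 1 below all 3 baseline libraries, and the interaction did not pass (adjusted p = 0.240).

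**Figure D4:**
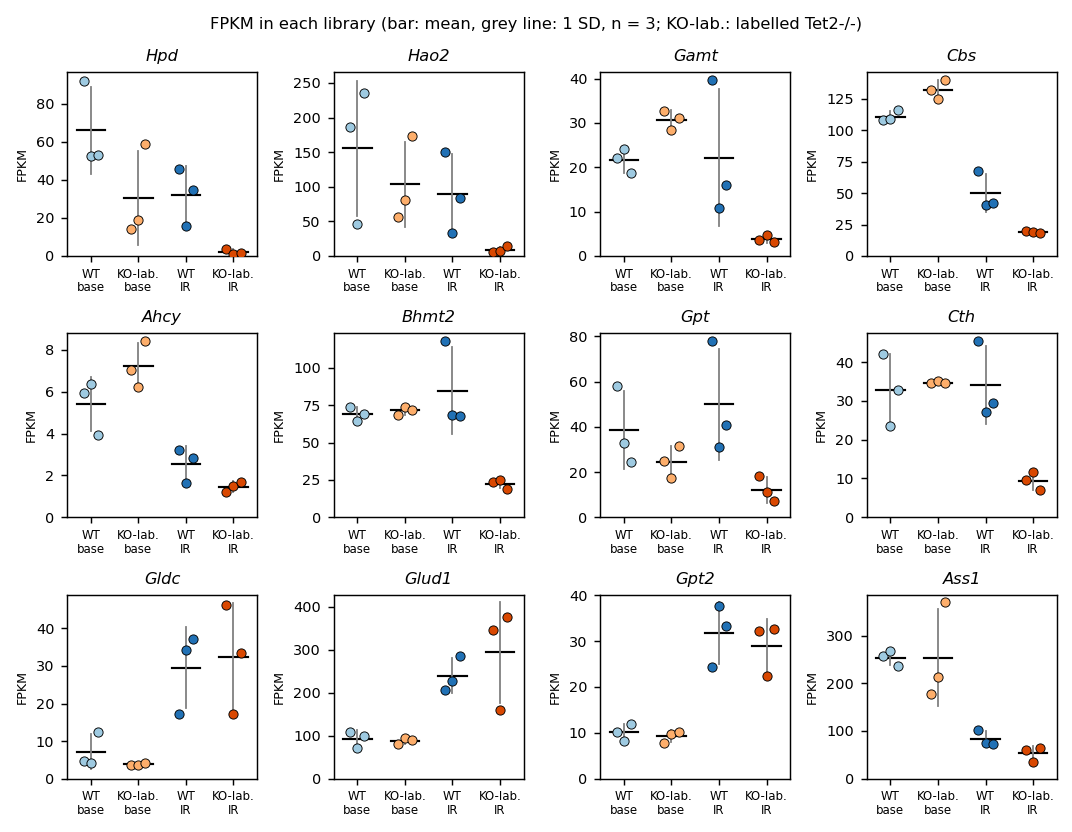
FPKM of 12 enzyme genes in each library, with the mean (black bar) and 1 SD (grey line) of the 3 libraries of a group, on axes that start at 0. Hpd, Hao2, Gamt, Cbs, Bhmt2 and Cth are lower in the 3 IR libraries labelled Tet2-/- than in the other 9, Gpt has its lowest group mean there, and Gldc, Glud1 and Gpt2 are higher in all 6 IR libraries than in all 6 baseline libraries.

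All 13 branched-chain genes were lower with IR in libraries labelled Tet2-/-, where the calls of Mut and Pccb were lost in part of the alternatives, and 11 of 13 were lower than in WT libraries after IR. In WT libraries 1 of 13 (Bckdhb) passed. The first step is the transfer of the amino group by Bcat2, the mitochondrial aminotransferase. Bcat2 stood at 37.5, 33.97 and 36.5 FPKM in the WT baseline libraries and at 41.8, 37.8 and 33.5 in the baseline libraries labelled Tet2-/-, against 39.9, 27.9 and 26.1 in the WT IR libraries and 18.03, 25.5 and 17.98 in the IR libraries labelled Tet2-/-. It fell with IR in libraries labelled Tet2-/- (log2 fold change −1.14, SE 0.14, adjusted p = 0.000870), and the interaction of −0.84 log2 units (SE 0.22, adjusted p = 0.0371) was lost in 14 of 21 alternatives. The second step is the branched-chain ketoacid dehydrogenase complex, with E1 subunits from Bckdha and Bckdhb and the E2 core from Dbt. In WT libraries Bckdha FPKM was 189, 217 and 182 at baseline and 142, 129.5 and 140 after IR, and in libraries labelled Tet2-/- it was 192, 181 and 233 at baseline and 94.8, 69.8 and 84.2 after IR. Bckdhb FPKM after IR was 12.6, 21.4 and 10.8 in the libraries labelled Tet2-/- and 23.4, 19.4 and 15.7 in the WT libraries, where the baseline values were 28.3, 30.7 and 35.2 and, in WT, 35.8, 28.7 and 33.5. The IR libraries lay below all baseline libraries of the same genotype for both subunits. Bckdhb fell with IR in WT libraries (log2 fold change −0.81, SE 0.15, adjusted p = 0.0426), a call that 9 of 16 alternatives ended, and in libraries labelled Tet2-/- (log2 fold change −1.35, SE 0.22, adjusted p = 0.00268), with no difference between genotypes after IR that passed (adjusted p = 0.209). Bckdha passed with IR in libraries labelled Tet2-/- at −1.54 log2 units (SE 0.20, adjusted p = 0.00109) and in the genotype comparison after IR at −0.82 log2 units (SE 0.19, adjusted p = 0.0409), the latter in 9 of 15 alternatives. Dbt, at group means of 25.4, 20.9, 24.9 and 14.6 FPKM, was lower after IR in libraries labelled Tet2-/- than in WT libraries by −0.86 log2 units (SE 0.15, adjusted p = 0.0212).

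Leucine is carried on by Ivd, the isovaleryl-CoA dehydrogenase, by 3-methylcrotonyl-CoA carboxylase with its subunits Mccc1 and Mccc2, and by the hydratase Auh. Ivd stood at 205, 155 and 230.2 FPKM in the WT baseline libraries and at 166, 208 and 210.5 in the baseline libraries labelled Tet2-/-, against 159.98, 133 and 123 in the WT IR libraries and 78.1, 66.4 and 61.2 in the IR libraries labelled Tet2-/-. In WT libraries Mccc2 FPKM was 47.6, 35.5 and 46.5 at baseline and 42.1, 27.3 and 26.5 after IR, and in libraries labelled Tet2-/- it was 46.02, 44.9 and 47.1 at baseline and 13.5, 12.3 and 10.5 after IR. Auh FPKM after IR was 21.5, 20.6 and 19 in the libraries labelled Tet2-/- and 34.1, 31.6 and 35.7 in the WT libraries, where the baseline values were 41.04, 47.8 and 50.7 and, in WT, 44.4, 41.4 and 47.5. In these 3 genes all IR libraries labelled Tet2-/- were below all other libraries. Mccc2 had the largest change of the branched-chain genes with IR in libraries labelled Tet2-/- (log2 fold change −2.19, SE 0.13, adjusted p = 7.02e-05), to 21.9% of baseline, and after IR it differed between genotypes by −1.499 log2 units (SE 0.20, adjusted p = 0.0123). The values with IR in libraries labelled Tet2-/- were −1.34 for Mccc1, −1.77 for Ivd and −1.45 for Auh on the log2 scale, with adjusted p of 0.00183, 0.000415 and 0.000269. Valine runs through Hibch (3-hydroxyisobutyryl-CoA hydrolase) and Hibadh (3-hydroxyisobutyrate dehydrogenase). Hibch stood at 27.3, 22.2 and 33.1 FPKM in the WT baseline libraries and at 22.2, 28.4 and 28.3 in the baseline libraries labelled Tet2-/-, against 39.05, 30.7 and 32.1 in the WT IR libraries and 21.1, 18.8 and 16.97 in the IR libraries labelled Tet2-/-. In WT libraries Hibadh FPKM was 272, 234 and 247 at baseline and 204, 175 and 201 after IR, and in libraries labelled Tet2-/- it was 249, 287 and 282 at baseline and 117, 104 and 112 after IR. Each WT IR library held more Hibch than 2 of the 3 WT baseline libraries without the change passing (log2 fold change 0.24, SE 0.18, adjusted p = 0.478), and it fell in libraries labelled Tet2-/- (log2 fold change −0.73, SE 0.15, adjusted p = 0.00655). Hibadh was at 34.1% of its baseline with IR in libraries labelled Tet2-/- (log2 fold change −1.55, SE 0.17, adjusted p = 0.000502). Hibch and Hibadh each have 1 near-identical copy of the coding sequence elsewhere in the genome (at least 90% identity over at least 50% of its length), whose reads could be split between them. Propionyl-CoA, an end product of valine and isoleucine, is carboxylated by the enzyme made of the Pcca and Pccb subunits, and the mutase Mut turns the methylmalonyl-CoA that follows into succinyl-CoA. After IR these were lower in libraries labelled Tet2-/- than in WT libraries by −0.91, −0.65 and −1.01 on the log2 scale, with adjusted p of 0.0132, 0.0415 and 0.0199, and passed in 15, 8 and 11 of 15 alternatives.

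**Figure D5:**
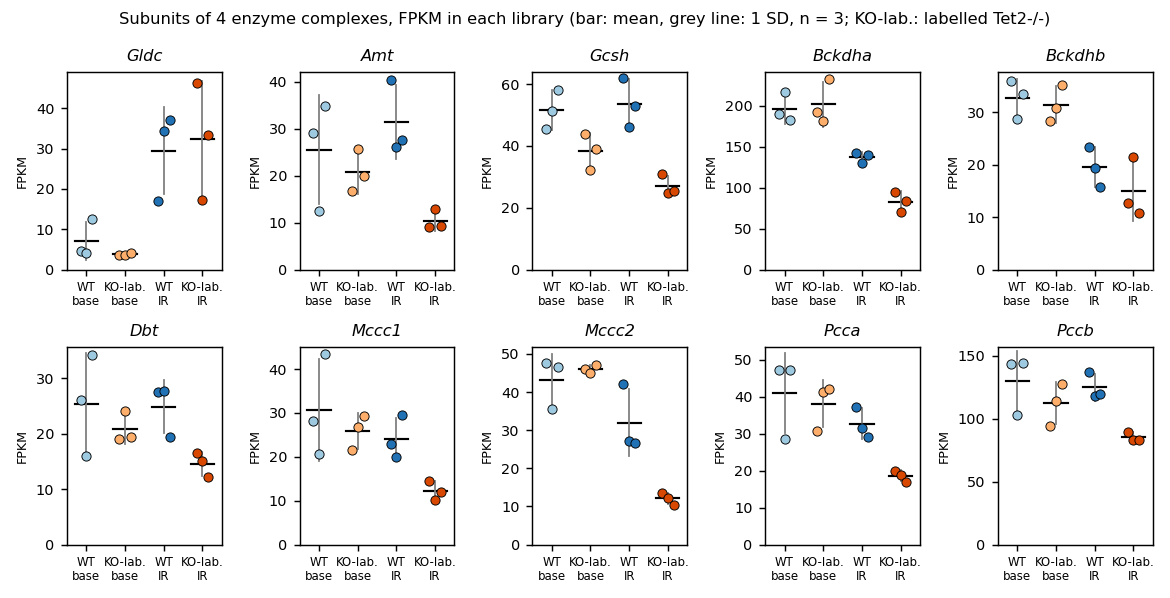
FPKM of the subunits of the glycine cleavage system (Gldc, Amt, Gcsh), the branched-chain ketoacid dehydrogenase (Bckdha, Bckdhb, Dbt), 3-methylcrotonyl-CoA carboxylase (Mccc1, Mccc2) and propionyl-CoA carboxylase (Pcca, Pccb) in each library, with the mean (black bar) and 1 SD (grey line). Gldc is higher in all 6 IR libraries, while the other 9 genes have their lowest group mean in the IR libraries labelled Tet2-/-.

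Glycine and serine genes moved in both directions. In libraries labelled Tet2-/- 9 of 11 tested were lower with IR and 1, Gldc, was higher (81.8% and 9.09%, against 20.3% and 22.9% of all genes). After IR 7 of 11 were lower than in WT libraries (63.6%, against 6.17% of all genes). Gldc (chromosome 19, 30172931 to 30249931, minus strand) encodes the glycine decarboxylase of the glycine cleavage system, which splits glycine into carbon dioxide, ammonia and a one-carbon unit. Gldc stood at 4.68, 4.15 and 12.5 FPKM in the WT baseline libraries and at 3.596, 3.63 and 4.13 in the baseline libraries labelled Tet2-/-, against 17.1, 34.3 and 37.1 in the WT IR libraries and 46.2, 17.2 and 33.4 in the IR libraries labelled Tet2-/-. Every IR library was above every baseline library of either genotype. Gldc rose 7.22-fold with IR in libraries labelled Tet2-/- (log2 fold change 2.85, SE 0.36, adjusted p = 0.000928), and in WT libraries its log2 fold change was 1.99 (SE 0.52, adjusted p = 0.0876), with an adjusted p of 0.00917 under the replicate block. The partner subunits of the same system were lower with IR in libraries labelled Tet2-/-. Amt (aminomethyltransferase) stood at 16.7, 25.7 and 19.9 FPKM at baseline and 9.12, 12.9 and 9.21 FPKM after IR in libraries labelled Tet2-/-, a fall (log2 fold change −1.26, SE 0.19, adjusted p = 0.00203), and Gcsh (the H protein) fell as well (log2 fold change −0.76, SE 0.16, adjusted p = 0.00768). In WT libraries the values with IR were 0.22 for Amt and −0.01 for Gcsh, and neither passed (adjusted p = 0.762 and 0.987). Gcsh has 6 near-identical copies in the genome.

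Serine and glycine are interconverted by the hydroxymethyltransferases Shmt1, in the cytosol, and Shmt2, in mitochondria. Shmt1 stood at 34.03, 25.1 and 37.3 FPKM in the WT baseline libraries and at 30.5, 33.9 and 36.1 in the baseline libraries labelled Tet2-/-, against 53.96, 39.7 and 44.03 in the WT IR libraries and 16.3, 25.8 and 10.7 in the IR libraries labelled Tet2-/-. In WT libraries Shmt2 FPKM was 120.2, 98.8 and 99.8 at baseline and 128, 73.7 and 97.2 after IR, and in libraries labelled Tet2-/- it was 87.1, 92 and 119.7 at baseline and 37.9, 43.5 and 41.4 after IR. Both had all IR libraries labelled Tet2-/- below all WT IR libraries. Shmt1 was higher in each WT IR library than in each WT baseline library without passing (log2 fold change 0.45, SE 0.20, adjusted p = 0.232), and the interaction was −1.62 log2 units (SE 0.34, adjusted p = 0.0175). Shmt2 fell with IR in libraries labelled Tet2-/- (log2 fold change −1.54, SE 0.18, adjusted p = 0.000606), and overlaps Ndufa4l2 on the opposite strand by 14 bases. Dmgdh and Sardh remove methyl groups from dimethylglycine and sarcosine, and Pipox oxidizes sarcosine and pipecolic acid. Dmgdh FPKM after IR was 20.7, 12.5 and 13.1 in the libraries labelled Tet2-/- and 64.97, 40.4 and 38.1 in the WT libraries, where the baseline values were 37.7, 44 and 46.1 and, in WT, 66.3, 35.96 and 53.4. Sardh stood at 57.1, 49.5 and 53.9 FPKM in the WT baseline libraries and at 45.8, 53.99 and 64.5 in the baseline libraries labelled Tet2-/-, against 65.6, 43.8 and 40.2 in the WT IR libraries and 19.6, 21.2 and 15.7 in the IR libraries labelled Tet2-/-. In WT libraries Pipox FPKM was 212, 149.8 and 167 at baseline and 158, 99.7 and 113 after IR, and in libraries labelled Tet2-/- it was 197, 212 and 196 at baseline and 46.9, 39.6 and 45.8 after IR. All IR libraries labelled Tet2-/- were below the other 9 libraries in these 3 genes. With IR in libraries labelled Tet2-/- the log2 fold changes were −1.72 (SE 0.23, adjusted p = 0.00110) for Dmgdh, −1.81 (SE 0.18, adjusted p = 0.000392) for Sardh and −2.44 (SE 0.17, adjusted p = 0.000109) for Pipox. In WT libraries Pipox was at −0.57 log2 units (SE 0.22, adjusted p = 0.178), and passed with the replicate block (adjusted p = 0.0472). Dmgdh and Sardh overlap exons of noncoding transcripts on the opposite strand, and whether the counting used strand is not given in the sources used here. In all, 11 members overlap exons of other genes. Among them are Mccc1 (488 bases), Bcat2 (306 bases), Mut (73 bases) and Glul (67 bases), also on the opposite strand. Gcat, the ligase of threonine breakdown, and Sdsl, a serine dehydratase-like enzyme, fell with IR in libraries labelled Tet2-/- (log2 fold change −0.96, SE 0.25, adjusted p = 0.0194 and log2 fold change −0.79, SE 0.17, adjusted p = 0.00910), and neither passed between genotypes after IR (adjusted p = 0.0812 and 0.389).

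Sulfur amino acid genes had the lowest median of the pathways with 6 or more genes. All 6 fell with IR in libraries labelled Tet2-/-, by a median of −2.35, and 5 of 6 passed the interaction. Cbs (chromosome 17, 31749568 to 31774150, minus strand), cystathionine beta-synthase, commits homocysteine to cysteine synthesis. Cbs stood at 108, 109 and 116 FPKM in the WT baseline libraries and at 132, 125 and 140.2 in the baseline libraries labelled Tet2-/-, against 67.4, 40.4 and 42.2 in the WT IR libraries and 20.1, 18.7 and 17.9 in the IR libraries labelled Tet2-/-. The 4 groups of Cbs did not overlap at any point, running from the baseline libraries labelled Tet2-/- down through WT baseline and WT IR to the IR libraries labelled Tet2-/-. Cbs fell with IR in WT libraries (log2 fold change −1.22, SE 0.20, adjusted p = 0.0328) and in libraries labelled Tet2-/- (log2 fold change −3.07, SE 0.15, adjusted p = 4.78e-05), where it was left at 11.9% of baseline, and the 2 changes differed by −1.81 log2 units (SE 0.25, adjusted p = 0.00381). Cth, cystathionine gamma-lyase, catalyses the next step. In WT libraries Cth FPKM was 42.02, 23.5 and 32.9 at baseline and 45.6, 27.1 and 29.4 after IR, and in libraries labelled Tet2-/- it was 34.5, 35.1 and 34.5 at baseline and 9.65, 11.7 and 7.05 after IR. It was at 98.8% of baseline after IR in WT libraries (adjusted p = 0.976) and at 22.6% in libraries labelled Tet2-/- (log2 fold change −2.14, SE 0.15, adjusted p = 0.000132).

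Bhmt2 (chromosome 13, 94426052 to 94444257, minus strand) remethylates homocysteine with S-methylmethionine, and the neighbouring Bhmt does so with betaine. Bhmt2 stood at 73.8, 64.8 and 69.2 FPKM in the WT baseline libraries and at 68.6, 74.1 and 71.9 in the baseline libraries labelled Tet2-/-, against 118, 68.2 and 68.02 in the WT IR libraries and 23.3, 24.99 and 19.1 in the IR libraries labelled Tet2-/-. The 3 WT IR libraries overlapped the baseline range or lay above it, and all 3 IR libraries labelled Tet2-/- were below it. After IR Bhmt2 differed between genotypes by −2.01 log2 units (SE 0.23, adjusted p = 0.0112). Bhmt2 and Dmgdh, whose starts flank the 130 bases shown, fell with IR in libraries labelled Tet2-/- to 26.2% and 30.3% of baseline, and in WT libraries their log2 fold changes were 0.22 and −0.19 (adjusted p = 0.584 and 0.722). Bhmt, with 2 near-identical copies, was at 0.0640 to 0.0830 FPKM in the IR libraries labelled Tet2-/- and at 0.290 to 0.608 FPKM in the baseline libraries of that label (log2 fold change −2.93, SE 0.41, adjusted p = 0.00142). Ahcy clears S-adenosylhomocysteine and Mat2a makes S-adenosylmethionine. Ahcy stood at 5.96, 6.36 and 3.95 FPKM in the WT baseline libraries and at 7.05, 6.24 and 8.43 in the baseline libraries labelled Tet2-/-, against 3.21, 1.64 and 2.85 in the WT IR libraries and 1.21, 1.51 and 1.69 in the IR libraries labelled Tet2-/-. In WT libraries Mat2a FPKM was 286, 193 and 217 at baseline and 216, 202 and 273 after IR, and in libraries labelled Tet2-/- it was 294, 344 and 278 at baseline and 165, 146 and 146 after IR. For Ahcy every IR library was below every baseline library, and IR libraries of the 2 genotypes overlapped. Ahcy fell with IR in libraries labelled Tet2-/- (log2 fold change −2.56, SE 0.22, adjusted p = 0.000226), and its interaction (log2 fold change −1.39, SE 0.38, adjusted p = 0.0459) was lost in 15 of 21 alternatives. Ahcy has 3 near-identical copies and Mat2a 1. Mat2a fell with IR in libraries labelled Tet2-/- (log2 fold change −1.26, SE 0.18, adjusted p = 0.00156), from baseline values of which 2 lay above those of all WT libraries.

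Proline, glutamate and alanine genes were the most divided. In libraries labelled Tet2-/- 5 of 10 were lower and 2 higher with IR (50% and 20%, against 20.3% and 22.9% of all genes). The share that was higher was thus close to that of all genes. After IR 2 of 10 (Aldh4a1 and Gpt) were lower than in WT libraries (20%, against 6.17% of all genes). Glud1 (chromosome 14, 35123913 to 35158219, plus strand) encodes glutamate dehydrogenase, which releases ammonia from glutamate in mitochondria. Glud1 stood at 109, 71.2 and 99.3 FPKM in the WT baseline libraries and at 80, 94.96 and 90.04 in the baseline libraries labelled Tet2-/-, against 207, 227 and 284 in the WT IR libraries and 345, 159 and 377 in the IR libraries labelled Tet2-/-. Every IR library was above every baseline library. It rose in WT libraries (log2 fold change 1.31, SE 0.24, adjusted p = 0.0400) and in libraries labelled Tet2-/- (log2 fold change 1.502, SE 0.35, adjusted p = 0.0121). The pair of alanine aminotransferases split. Gpt2 stood at 10.3, 8.195 and 11.9 FPKM in the WT baseline libraries and at 7.74, 9.76 and 10.2 in the baseline libraries labelled Tet2-/-, against 24.4, 37.8 and 33.4 in the WT IR libraries and 32.2, 22.4 and 32.6 in the IR libraries labelled Tet2-/-. In WT libraries Gpt FPKM was 57.8, 32.8 and 24.6 at baseline and 77.8, 31.1 and 40.99 after IR, and in libraries labelled Tet2-/- it was 24.8, 17.5 and 31.4 at baseline and 18.3, 11.04 and 6.96 after IR. Gpt2, the mitochondrial form, was higher in all IR than in all baseline libraries, and Gpt, the cytosolic form, was lower in the IR libraries labelled Tet2-/- than in the WT IR libraries. Gpt2 rose by 1.59 (SE 0.22, adjusted p = 0.0196) in WT libraries and 1.41 (SE 0.22, adjusted p = 0.00206) in libraries labelled Tet2-/- on the log2 scale, and has 1 near-identical copy. Gpt fell with IR in libraries labelled Tet2-/- (log2 fold change −1.29, SE 0.35, adjusted p = 0.0219), and after IR the genotypes differed by −2.15 log2 units (SE 0.44, adjusted p = 0.0313). The interaction of Gpt was −1.55 log2 units (SE 0.60, adjusted p = 0.125), with an adjusted p of 0.0456 under the block, and that of Gpt2 was −0.14 log2 units (SE 0.33, adjusted p = 0.826).

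Aldh4a1 oxidizes the proline product pyrroline-5-carboxylate to glutamate. Aldh4a1 FPKM after IR was 46.7, 45.4 and 47.7 in the libraries labelled Tet2-/- and 155, 114 and 108 in the WT libraries, where the baseline values were 125, 159 and 169 and, in WT, 153, 140.01 and 177. The IR libraries labelled Tet2-/- lay close together and below all other libraries. Aldh4a1 fell in them (log2 fold change −1.95, SE 0.19, adjusted p = 0.000335), and in WT libraries the change was −0.39 log2 units (SE 0.18, adjusted p = 0.262). The proline dehydrogenase Prodh was at −0.91 log2 units (SE 0.27, adjusted p = 0.0278) and the hydroxyproline dehydrogenase Prodh2 at −1.53 log2 units (SE 0.48, adjusted p = 0.0343) with IR in libraries labelled Tet2-/-, and the test was passed in 11 and 7 of 15 alternatives. Prodh2 varied widely among WT IR libraries, at 1.76, 9.38 and 19.2 FPKM. Glul, the glutamine synthetase, had similar values in both genotypes, with −1.27 log2 units (SE 0.33, adjusted p = 0.0860) in WT libraries and −1.30 log2 units (SE 0.27, adjusted p = 0.00703) in libraries labelled Tet2-/-, and under the replicate block it passed in WT libraries too (adjusted p = 0.00686). It has 2 near-identical copies. The aspartate aminotransferases Got1 and Got2 were at 0.01 (SE 0.16) and 0.25 (SE 0.20) with IR in libraries labelled Tet2-/-, with adjusted p of 0.956 and 0.336. Got2 stood at 104, 90.4 and 114 FPKM in the IR libraries labelled Tet2-/-, each above all 3 baseline libraries of that label, and has 1 near-identical copy.

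Of the 4 arginine and creatine genes, 1 fell with IR in WT libraries and 3 fell in libraries labelled Tet2-/-. Ass1 (chromosome 2, 31325790 to 31376190, plus strand), argininosuccinate synthase, joins citrulline and aspartate in renal arginine synthesis. Ass1 stood at 256, 268 and 237 FPKM in the WT baseline libraries and at 178, 212 and 369.5 in the baseline libraries labelled Tet2-/-, against 103, 73.7 and 71.6 in the WT IR libraries and 59.1, 35.1 and 64.2 in the IR libraries labelled Tet2-/-. Every IR library was below every baseline library of both genotypes. Ass1 had the smallest adjusted p of the enzymes with IR in WT libraries (log2 fold change −1.68, SE 0.16, adjusted p = 0.00842), fell in libraries labelled Tet2-/- as well (log2 fold change −2.51, SE 0.38, adjusted p = 0.00189), and the difference between the changes did not pass (log2 fold change −0.77, SE 0.43, adjusted p = 0.271). Ass1 has 1 near-identical copy. Asl, which cleaves argininosuccinate to arginine, was at −0.29 log2 units (SE 0.19, adjusted p = 0.404) in WT libraries. Gatm transfers the amidino group of arginine to glycine, and Gamt methylates the product to creatine. Gatm stood at 62.3, 61.5 and 188 FPKM in the WT baseline libraries and at 77.01, 48.2 and 72.2 in the baseline libraries labelled Tet2-/-, against 17.9, 21.96 and 57.9 in the WT IR libraries and 4.79, 20.9 and 25.6 in the IR libraries labelled Tet2-/-. In WT libraries Gamt FPKM was 22.1, 24.2 and 18.6 at baseline and 39.6, 10.8 and 16 after IR, and in libraries labelled Tet2-/- it was 32.7, 28.3 and 31.1 at baseline and 3.64, 4.77 and 3.04 after IR. Gatm varied widely within groups, with WT baseline replicate 3 at 3 times the level of the other 2, and all IR libraries were below the baseline libraries of their genotype. It fell in libraries labelled Tet2-/- (log2 fold change −2.20, SE 0.55, adjusted p = 0.0157), and in WT libraries it was at −1.70 log2 units (SE 0.64, adjusted p = 0.180) and passed with the block (adjusted p = 0.00367). Gamt was at 10.3% of baseline after IR in libraries labelled Tet2-/- (log2 fold change −3.28, SE 0.17, adjusted p = 4.78e-05), and in WT libraries 1 IR library lay above and 2 below the baseline range (log2 fold change −0.04, SE 0.43, adjusted p = 0.968). Its interaction was the largest of the enzymes that passed, at −3.20 log2 units (SE 0.51, adjusted p = 0.00613).

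Lysine breakdown starts with Aass, a bifunctional enzyme, and a later step is the glutaryl-CoA dehydrogenase Gcdh. Gcdh stood at 186, 165 and 150.2 FPKM in the WT baseline libraries and at 190.3, 177 and 205 in the baseline libraries labelled Tet2-/-, against 168, 99.4 and 122 in the WT IR libraries and 67.4, 43.8 and 54.5 in the IR libraries labelled Tet2-/-. All IR libraries labelled Tet2-/- were below the other 9 libraries. Gcdh fell in libraries labelled Tet2-/- with IR (log2 fold change −2.04, SE 0.22, adjusted p = 0.000480) and differed between genotypes after IR by −1.32 log2 units (SE 0.27, adjusted p = 0.0298). Aass stood at 90.7, 50.5 and 87.6 FPKM in the IR libraries labelled Tet2-/- and 106, 101 and 106 FPKM in the WT IR libraries, and passed in no comparison (adjusted p = 0.316 with IR in libraries labelled Tet2-/-).

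The peroxisomal oxidases and Agxt2 fell together in libraries labelled Tet2-/-. Hao2 (chromosome 3, 98678442 to 98697153, minus strand) is a hydroxyacid oxidase, Dao oxidizes D-amino acids, and Agxt2 is a mitochondrial alanine-glyoxylate aminotransferase. Hao2 stood at 186, 46.03 and 235 FPKM in the WT baseline libraries and at 56.2, 81 and 173 in the baseline libraries labelled Tet2-/-, against 149.9, 33.9 and 84.3 in the WT IR libraries and 5, 7.58 and 13.8 in the IR libraries labelled Tet2-/-. In WT libraries Dao FPKM was 157, 142 and 151 at baseline and 127, 96.4 and 80.6 after IR, and in libraries labelled Tet2-/- it was 144, 149.9 and 183 at baseline and 26.7, 35.6 and 53.9 after IR. Agxt2 FPKM after IR was 13.8, 12.8 and 14.6 in the libraries labelled Tet2-/- and 34.6, 21.8 and 26.2 in the WT libraries, where the baseline values were 33.8, 38.3 and 44.2 and, in WT, 40.7, 25.9 and 37.4. Hao2 varied about 5-fold among WT baseline libraries and still had all IR libraries labelled Tet2-/- below all others, as had Dao and Agxt2. Hao2 fell to 7.16% of baseline in libraries labelled Tet2-/- (log2 fold change −3.80, SE 0.57, adjusted p = 0.00175), and after IR the genotypes differed by −3.43 log2 units (SE 0.64, adjusted p = 0.0239). The interaction of Hao2 was −2.88 log2 units (SE 0.97, adjusted p = 0.0837) and passed with the replicate block (adjusted p = 0.00262) and in 3 of 21 alternatives in all. Dao was at −0.64 log2 units (SE 0.17, adjusted p = 0.0887) with IR in WT libraries, with 0.0474 as the adjusted p under the block, and fell in libraries labelled Tet2-/- (log2 fold change −2.28, SE 0.30, adjusted p = 0.00104). Agxt2 fell in libraries labelled Tet2-/- (log2 fold change −1.76, SE 0.16, adjusted p = 0.000296), and shares 89 bases of exon with Prlr on the same strand.

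Other genes of the same pathways were taken from a fixed list of 63. With IR in WT libraries 1 of 55 tested was higher and 1 lower (1.82% each, where 1.88% and 1.14% of all genes were), and in libraries labelled Tet2-/- 6 of 57 were higher and 38 lower (10.5% and 66.7%, against 22.9% and 20.3% of all genes). After IR 29 of 56 were lower in libraries labelled Tet2-/- and 1 higher (51.8% and 1.79%, against 6.17% and 3.51%). The interaction passed with a negative value for 21 of 58 and with a positive value for 3 (36.2% and 5.17%, against 5.39% and 3.79%). In libraries labelled Tet2-/- 12 of 13 other branched-chain genes, 5 of 5 other aromatic genes and 7 of 8 other lysine and histidine genes were lower with IR, while of 10 other proline and glutamate genes 3 were lower and 3 higher. Of the other sulfur genes 5 of 9 were lower and 0 higher, of the other glycine and serine genes 4 of 8 were lower and 1 higher, and of the other arginine genes 2 of 4 were lower and 2 higher.

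Markers of cell types moved in the same libraries as the enzymes. The FPKM of 12 proximal tubule markers summed to 4726 to 5798 in WT baseline libraries, 4864 to 5941 in baseline libraries labelled Tet2-/-, 3342 to 4128 in WT IR libraries and 1253 to 1927 in IR libraries labelled Tet2-/-. With IR in WT libraries 1 of the 12 was lower and 0 higher, at a median log2 fold change of −0.58 (all genes: 1.14% and 1.88%). For 3 every WT IR library was below every WT baseline library and for 2 above (all genes: 10.4% and 18.9%). In libraries labelled Tet2-/- 9 of the 12 were lower with IR, at a median log2 fold change of −1.72 (all genes: 20.3% lower). After IR 6 of 12 were lower than in WT libraries (all genes: 6.17%). The 8 tubular injury genes summed to 219 to 515 FPKM in the 6 baseline libraries, 1648 to 7852 in WT IR libraries and 11996 to 25929 in IR libraries labelled Tet2-/-. Spp1 alone made up 8742 to 21437 FPKM of the last sum. Between genotypes after IR 0 of the 8 injury genes passed edgeR's test (6 were higher by an unadjusted p under 0.05, where 13.9% of all genes were). The 5 neutrophil markers, which all rose with IR in libraries labelled Tet2-/-, summed to 0.572 to 2.68 FPKM at baseline, 3.995 to 9.35 after IR in WT libraries and 74.1 to 130.9 after IR in libraries labelled Tet2-/-. The 6 macrophage markers summed to 24.6 to 45.4 FPKM in the baseline libraries, 27.6 to 44.6 FPKM in WT IR libraries and 52.9 to 184 FPKM in IR libraries labelled Tet2-/-, and 2 of 6 were higher between genotypes after IR. The highest of these sums held 119.7 FPKM of Lyz2, and Csf1r fell with IR in libraries labelled Tet2-/-, to 2.21 to 6.93 FPKM. The 5 glomerular markers summed to 13.7 to 26.3 FPKM in the baseline libraries. They summed to 3.23 to 24.9 FPKM in WT IR libraries and 42.9 to 87.8 FPKM in IR libraries labelled Tet2-/-. All 5 were higher with IR in libraries labelled Tet2-/-, at a median log2 fold change of 1.95 (all genes: 22.9% higher). Between genotypes after IR 0 of 5 passed edgeR's test. By an unadjusted p under 0.05, 4 were higher, where 13.9% of all genes were. WT IR replicate 3 stood apart in its group, with glomerular markers at 3.23 FPKM against 24.9 FPKM in both others, and 5 endothelial markers at 5.73 FPKM against 43.7 and 30.3 FPKM. Without it 15 enzymes, in place of 31, were lower between genotypes after IR. WT IR replicate 1 had the lowest injury sum of its group, at 1648 FPKM against 7852 and 5912, and the proximal tubule marker Slc5a2 at 7.48 FPKM against 54.9 and 102.4, and without it 11 enzymes were lower between genotypes after IR. The adipocyte markers ran from 15.05 to 274 FPKM in all libraries but 1, the third IR library labelled Tet2-/-, at 601 FPKM. Fabp4 made up 445 FPKM of that sum, against 12.5 to 150 FPKM in the other libraries. Without the third IR library labelled Tet2-/-, 42 enzymes were lower with IR in libraries of that label and 22 were lower than in WT after IR. The same library had 5 thick ascending limb markers at 406 FPKM against 2135 and 2652 FPKM in the others of its group, and 4 distal convoluted tubule markers at 43.2 FPKM against 97.7 and 134.4 FPKM. In the 9 libraries of the other groups these lists summed to 878 to 2019 and 103.3 to 243.9 FPKM. Umod alone made up 2018 and 2512 FPKM of the thick ascending limb sums of 2135 and 2652 FPKM. Slc12a1, at 18.3 to 56.6 FPKM in the IR libraries labelled Tet2-/-, was in each of them below all other libraries. So was Cldn10, at 19.1 to 35.6 FPKM. With IR in libraries of that label 2 of the 5 thick ascending limb markers were lower and 0 higher (all genes: 20.3% and 22.9%). The 7 collecting duct markers summed to 309.6 to 901 FPKM over all libraries. The 8 liver genes, some of which kidney cells also express, summed to 1181 to 1241 FPKM at baseline and 352 to 544 FPKM after IR in WT libraries, and to 881 to 1219 FPKM at baseline and 55.8 to 339 FPKM after IR in libraries labelled Tet2-/-. Cyp2e1 alone made up 1100 to 1183 FPKM of the WT baseline sums and 47.5 to 310 FPKM of those after IR in libraries labelled Tet2-/-. Alb was at or under 0.919 FPKM in every library. Adrenal and muscle markers stayed at or under 2.02 FPKM. The part of cell composition in the changes of the enzymes was not tested.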

How the data were processed

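RNA-seq of whole kidneys gave 12 libraries. The authors used STAR for alignment (genome build mm9) and HOMER for counting over RefSeq transcripts (versions not given in the sources used here), and deposited expected counts, without normalization, and FPKM of the same transcripts. The counts rise in steps of 0.5, with 38.7% not whole, and were rounded. Of 34600 transcripts, that with the highest total per symbol was used, which mattered for 11 of the 54 members. Total counts ran from 51007366 to 107969888 per library. Each comparison used its own 6 libraries in edgeR 4.0.16 (R 4.3.3) with TMM, its filter for low counts, the quasi-likelihood test and adjustment by Benjamini-Hochberg, and the interaction used all 12. Fold changes are edgeR's fitted values, and an adjusted p under 0.05 passed. Each SE was worked back from edgeR's test, as the absolute log2 fold change divided by the square root of the test's F statistic. The members, lists and rules were chosen with earlier results of these data known.

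Values in every library are given, by rule, for the 5 members in each direction with the largest change among those that passed (mean of at least 1 FPKM in either group), those that passed the interaction, and the member of each pathway with the largest change with IR in WT libraries. Single genes of the other pathway lists are not reported here. The alternatives were DESeq2 1.42.0, library sizes alone, no filter, a mean of at least 1 FPKM, limma 3.58.1 on log2(FPKM + 1) and log2(FPKM + 0.1), 1 fit of all libraries, rows of a symbol summed, a replicate block and leaving out any 1 library. Libraries that share a number and a genotype deviated together between baseline and IR (the pairs correlated at 0.349, 0.349 and 0.344 for WT, and at 0.12, 0.35 and 0.202 for libraries labelled Tet2-/-), although the paper describes separate mice. The pairing rests on these correlations alone. Copies were found with BLAST 2.17.0 and figures drawn with matplotlib 3.10.9.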

Additional observations from a re-analysis of the deposited data

Results flagged for a closer look

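The change with IR differed between the genotypes, by edgeR's test of the interaction over all 12 libraries, for the following 24 enzymes, and each value is the log2 change in libraries labelled Tet2-/- minus that in WT libraries. Among aromatic genes it was −1.83 for Hgd and −1.36 for Fah. Among branched-chain genes it was −0.84 for Bcat2, −0.92 for Bckdha, −1.15 for Ivd, −1.64 for Mccc2, −0.96 for Auh, −1.08 for Hibadh and −0.93 for Hibch. Among glycine and serine genes it was −1.62 for Shmt1, −1.34 for Shmt2, −1.48 for Dmgdh, −1.59 for Sardh and −1.83 for Pipox. Among sulfur genes it was −2.11 for Bhmt2, −1.81 for Cbs, −2.09 for Cth, −1.15 for Mat2a and −1.39 for Ahcy. It was −1.52 for Aldh4a1, −3.20 for Gamt, −1.57 for Gcdh, −1.31 for Agxt2 and −1.60 for Dao. Of these, Hgd, Bhmt2 and Cbs had the smallest adjusted p (0.00381 each). The call was lost in 15 of 21 alternatives for Ahcy, 14 for Bcat2, 11 for Hibch, 10 for Dmgdh, 10 for Mat2a, 8 for Bckdha, 4 for Agxt2, 3 for Ivd and 3 for Dao, and for each other gene in 1, the fit without WT baseline replicates 2 and 3 together.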

How the results depend on the processing

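No gene changed sign, under the alternatives run, in the comparison for which the rule names it. With the replicate block the change with IR in libraries labelled Tet2-/-, close to 0 and not passing either way, turned from 0.01 to −0.18 log2 units for Ddc and from 0.01 to −0.0024 for Got1. With IR in libraries labelled Tet2-/- the number of enzymes lower stayed between 37 and 44. With IR in WT libraries the number lower was 10 with DESeq2, 5 with all 12 libraries in a single fit, 8 with the replicate block (over all genes 874, 406 and 829, from 182) and 1 to 4 when any 1 library was left out, and the number higher was 0 to 3 when any 1 library was left out. Both were 0 without WT baseline replicates 2 and 3 together, an alternative chosen after seeing the data. At baseline DESeq2 called 1 enzyme higher. After IR the number lower between genotypes was 11 to 29 when any 1 library was left out, and the interaction passed with a negative value for 15 to 27 enzymes, and for 0 without WT baseline replicates 2 and 3 together. The cause was not tested, except that leaving out libraries leaves fewer samples to estimate the spread. Among the values of named genes under alternatives, 729 kept their side of the threshold, 141 lost it and 5 gained it. Same-numbered libraries of the 2 genotypes correlated at −0.173, −0.150 and 0.0524 at baseline and at −0.000229, 0.206 and 0.303 after IR. The values of 0.206 and 0.303 lay within the 0.12 to 0.35 of the baseline and IR pairs labelled Tet2-/-. A pair with different numbers, WT IR replicate 1 and the second IR library labelled Tet2-/-, reached 0.226. With the replicate block in the genotype comparisons, 0 enzymes were lower and 0 higher at baseline and 31 were lower and 0 higher after IR. The block left the IR counts in libraries labelled Tet2-/- at 44 lower and 3 higher, and the interaction then passed with a negative value for 28 enzymes and with a positive value for 0. Scaling by library size alone moved the split of all genes with IR in libraries labelled Tet2-/- from 3313 lower and 3741 higher to 2299 and 5275, and after IR between genotypes from 999 and 568 to 784 and 802, while 41 and 31 enzymes were lower.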
